A study of Mus musculus with 6 samples.

Results

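The Cyp3a and Cyp4 cytochromes P450 and the flavin-containing monooxygenases (Fmo) were followed in normal livers and liver tumors of C3H mice. A gene was a member when the symbol of its probe, or the current symbol of the probe's accession, began with Cyp3a, Cyp4 and a letter, or Fmo, followed by a number. The array carried 37 such genes on 49 probes, of 34741 named genes in all, and 26 of the 37 were bright enough to be tested, of 18568 genes tested. The samples were 3 normal livers and 3 liver tumors of male C3H/HeN mice aged 74 to 75 weeks, kept on a standard diet and tap water. The mice were F2 animals of the control arm of a gestational arsenic project, so neither group was treated. C3H males develop liver tumors spontaneously, and per the methods of the study the tumors were macroscopic nodules that carried an Ha-ras mutation. Whether a tumor and a normal liver came from 1 animal is not given in the sources used here.

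Each sample was hybridised to 1 single-colour Agilent array, and each value below is a signal divided by the 75th percentile of its own array. A value of 1 is therefore the brightness of the 75th percentile spot, and levels of different probes are not on a common scale. The sums of marker levels below add different probes all the same, so the brightest probes decide each sum. Between 44.7% and 48.9% of the spots of an array were well above background, and no spot was saturated. The normal livers lay on 1 slide and the tumors on the other, with a scan each, and tissue therefore cannot be told apart from slide and scan. Of 8 hepatocyte markers, Alb, Apoa2, Ttr, Ahsg and Fgb had log2 fold changes of -0.21 to -0.02 (tumor minus normal) and were not called, Tat and Cps1 were called lower at -1.43 and -1.48, and Apoa1 was called higher at 0.90. In bulk tissue, fewer cells of a type and less RNA per cell cannot be told apart.

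Cytochromes P450 are haem enzymes of the endoplasmic reticulum that insert oxygen into fats, steroids, bile acids and drugs, with electrons passed on by P450 oxidoreductase. The Cyp3a enzymes are the classic drug and steroid hydroxylases of the liver, and their genes respond to the xenobiotic receptors PXR (Nr1i2) and CAR (Nr1i3). The Cyp4 enzymes hydroxylate the tail end of fatty acids and eicosanoids, and several Cyp4a genes are textbook targets of PPARA. The flavin monooxygenases use a flavin in place of haem and oxygenate nitrogen and sulfur atoms. Several members are sex-biased in mouse liver: Cyp4a12a and Cyp4a12b are typical of males, and Cyp3a16, Cyp3a41a, Cyp3a41b and Cyp3a44 of females.

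Of the 26 genes tested, 14 were called lower in the tumors and 3 higher (limma, Benjamini-Hochberg adjusted over all probes tested, threshold 0.05), and 9 were not called. Over all genes tested, 21.0% were called lower and 13.1% higher, so the share of members called lower (53.8%) was above the background and the share called higher (11.5%) was near it. Some members are near copies with like probes, among them Cyp4a10 and Cyp4a31, so the member counts are not of independent readings. The median log2 fold change was -1.37 over the members and -0.13 over all genes tested. Of the 14 genes called lower, 12 fell by 2-fold or more. In 16 members each tumor lay below each normal liver, a pattern that 33.5% of all genes tested showed, and in 3 members each tumor lay above, against 18.3% of all genes. The genes called lower were Cyp3a13, Cyp3a25, Cyp3a57, Cyp3a59, Cyp4a10, Cyp4a31, Cyp4a32, Cyp4f13, Cyp4f14, Cyp4f15, Cyp4f17, Cyp4v3, Fmo1 and Fmo5. The genes called higher were Cyp4f16, Fmo2 and Fmo4. With 3 samples against 3, an exact permutation test of 1 gene could not go below p = 0.1, so the calls rest on the fit across all probes.

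**Figure D1:**
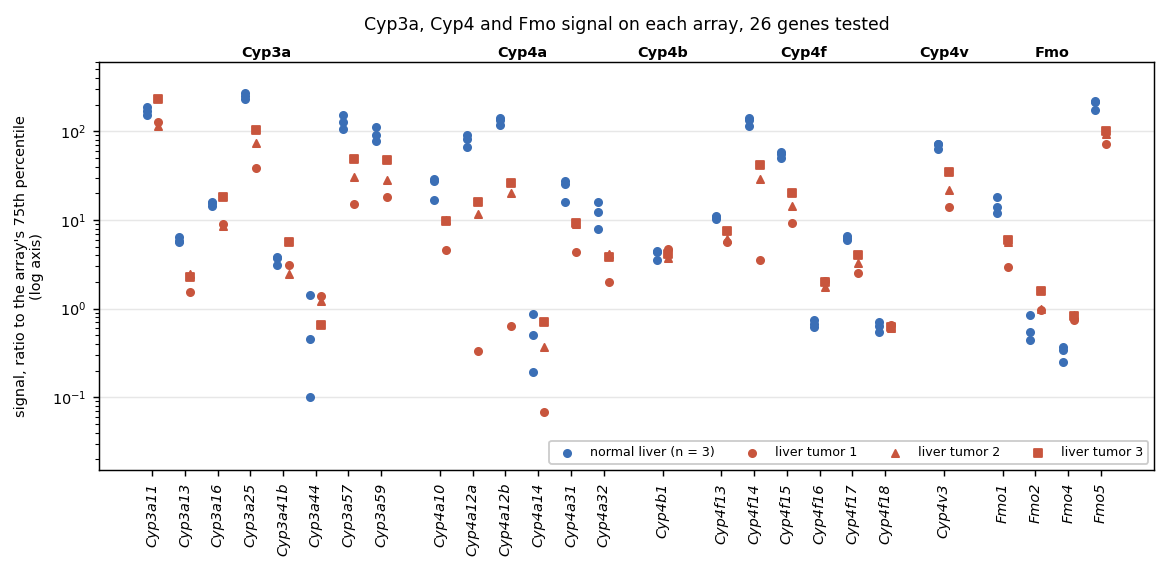
Signal of the 26 tested genes on each array, relative to the 75th percentile of that array (log axis), with 3 normal livers in blue and 3 liver tumors in red, each tumor with its own symbol. The tumors lie below the normal livers in 16 genes and above them in 3, and liver tumor 1 (red circles) is the lowest tumor in 19.

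The Cyp3a genes split into those that fell and those whose groups overlapped. On chromosome 5 (GRCm38.p6), 7 tested genes lie together in the order Cyp3a57, Cyp3a16, Cyp3a41b, Cyp3a44, Cyp3a11, Cyp3a25 and Cyp3a59, between positions 145345149 and 146114978, and Cyp3a13 lies apart at 137892933 to 137925610. Cyp3a57, Cyp3a25 and Cyp3a59, at the outer ends of the cluster, were called lower. Cyp3a16, Cyp3a41b, Cyp3a44 and Cyp3a11, between them, were not called.

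The stretch from 180 to 121 bases before the start listed with the RefSeq upstream sequences is shown for these 7 genes. Whether the upstream sequence bears on the changes was not tested. Sequences are from RefSeq (GRCm38.p6), 5′ to 3′ on the strand of the gene, and capitals mark the letters AGGTCA or AGTTCA on either strand (TGACCT and TGAACT on the other), which are half-sites of nuclear receptors. The listed start is the outer end of the gene record for Cyp3a11 and lies inside the record by 120 bases for Cyp3a57, 50 for Cyp3a59, 26 for Cyp3a25, 17 for Cyp3a16 and Cyp3a44, and 2 for Cyp3a41b, so the distance to the outer end is shorter by that much. The genes that were called lower come first.
Cyp3a57 (chr5:145345089-145345148, plus strand): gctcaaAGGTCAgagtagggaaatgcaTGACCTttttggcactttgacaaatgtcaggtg
Cyp3a25 (chr5:146009739-146009798, minus strand): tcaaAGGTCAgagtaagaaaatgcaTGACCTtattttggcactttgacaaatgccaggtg
Cyp3a59 (chr5:146079078-146079137, plus strand): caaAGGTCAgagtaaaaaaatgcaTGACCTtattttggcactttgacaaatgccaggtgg
Cyp3a16 (chr5:145469844-145469903, minus strand): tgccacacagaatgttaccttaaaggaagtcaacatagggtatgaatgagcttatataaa
Cyp3a41b (chr5:145584851-145584910, minus strand): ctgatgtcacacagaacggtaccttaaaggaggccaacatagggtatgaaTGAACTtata
Cyp3a44 (chr5:145805995-145806054, minus strand): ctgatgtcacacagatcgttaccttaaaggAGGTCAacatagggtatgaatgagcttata
Cyp3a11 (chr5:145879975-145880034, minus strand): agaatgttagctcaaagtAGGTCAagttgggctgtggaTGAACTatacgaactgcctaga

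Over the 250 bases before the listed start, Cyp3a57, Cyp3a25 and Cyp3a59 were 88.9% to 94.8% identical to each other. Cyp3a16, Cyp3a41b and Cyp3a44 were 91.3% to 94.8% identical to each other, and Cyp3a11 was 71.7% to 76.2% identical to these. Between Cyp3a57, Cyp3a25 and Cyp3a59 and the genes not called, identity was 49.5% to 53.6%. Cyp3a13, which was also called lower, was 47.5% to 56.2% identical to the rest. Its listed start lies 3991 bases inside its gene record, so the stretch compared is not at the outer end of the record. The upstream regions of Cyp3a57, Cyp3a25 and Cyp3a59 each held AGGTCA and, after 15 bases, TGACCT. This arrangement, noticed in these sequences and then counted, stood in 3 of the 26994 upstream regions searched, which are those of Cyp3a57, Cyp3a25 and Cyp3a59. AGGTCA alone, on either strand, was in 13.8% of all upstream regions, and AGTTCA in 11.9%. These genes are copies of each other, so their sequences are not independent, and whether any factor binds there was not measured.

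Cyp3a25 read 230, 272 and 252 in normal livers 1, 2 and 3 and 38.5, 73.7 and 103 in tumors 1, 2 and 3. Its groups were well apart, with a log2 fold change of -1.92 ± 0.34 (SE, adjusted p = 0.00844). Cyp3a57 read 105, 155 and 126 in the normal livers and 15.1, 30.4 and 48.5 in the tumors, for a log2 fold change of -2.18 ± 0.41 (adjusted p = 0.0102). Both genes are lowest in tumor 1 and highest, among the tumors, in tumor 3. Cyp3a59 read 77.6, 112 and 91.7 in the normal livers and 18.2, 28.0 and 47.2 in the tumors, for a log2 fold change of -1.69 ± 0.35 (adjusted p = 0.0134). The other tested probe of Cyp3a59 gave -1.51 ± 0.27. Cyp3a13, which is also made outside the liver, read 5.82, 5.61 and 6.38 in the normal livers and 1.54, 2.44 and 2.25 in the tumors. Its log2 fold change was -1.54 ± 0.19 (adjusted p = 0.00273), and a second probe gave -1.50 ± 0.16.

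Cyp3a11, the main PXR-inducible Cyp3a enzyme of mouse liver, read 152, 187 and 168 in the normal livers and 128, 116 and 230 in the tumors. Tumors 1 and 2 lay below the normal livers and tumor 3 above them, and the log2 fold change was -0.16 ± 0.27 (adjusted p = 0.676). Cyp3a16 showed the same split of the tumors, with 14.4, 16.1 and 15.7 in the normal livers and 8.97, 8.65 and 18.2 in the tumors (-0.45 ± 0.29, adjusted p = 0.272). Without tumor 3, Cyp3a16 was called lower, at -0.80 (adjusted p = 0.00966), and Cyp3a11 was not, at -0.47 (adjusted p = 0.0638). Cyp3a41b read 3.08, 3.83 and 3.71 in the normal livers and 3.104, 2.46 and 5.64 in the tumors (-0.01 ± 0.30, adjusted p = 0.988). The sign for Cyp3a11 and Cyp3a41b turned under spike-in scaling, to 0.03 and 0.19. Cyp3a44 read 0.102, 1.44 and 0.451 in the normal livers, of which 2 were well above background, and 1.38, 1.23 and 0.651 in the tumors, with a log2 fold change of 1.36 ± 0.91 (adjusted p = 0.293). For Cyp3a16, Cyp3a41b and Cyp3a44, the female-typed genes, the groups thus overlapped.

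**Figure D2:**
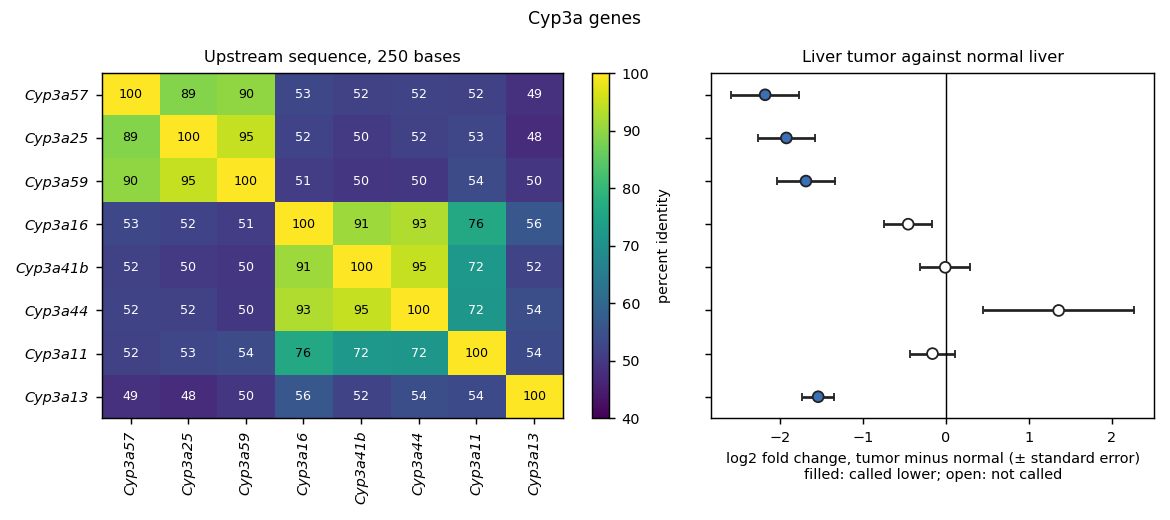
Left, percent identity of the 250 bases before the listed start of each Cyp3a gene, which for Cyp3a13 lies 3991 bases inside its gene record. Right, log2 fold change of the same genes (tumor minus normal, bars are standard errors, n = 3 and 3), filled where called lower. Cyp3a57, Cyp3a25 and Cyp3a59 form 1 block of like sequence and were called lower, and Cyp3a16, Cyp3a41b, Cyp3a44 and Cyp3a11 form another and were not called. Cyp3a13 was called lower and is in neither block.

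Probes of the Cyp3a cluster are not all specific. The Cyp3a41b probe also lists the accession of Cyp3a41a, and a second Cyp3a11 probe, which gave -0.04 ± 0.31, lists Cyp3a41a, Cyp3a41b and Cyp3a44. The log2 distance between Cyp3a11 and Cyp3a41b varied by only 0.27 over the 6 arrays, while Cyp3a11 itself varied by 0.99, and the distance between Cyp3a11 and Cyp3a16 varied by 0.44. The part of shared hybridisation in this was not tested. The probes of Cyp3a41b and Cyp3a44 overlap on 53 bases and share 46 of them. The 30-base stretch in which they differ most is shown here, 5′ to 3′, with the 7 differing bases in capitals.
Cyp3a41b probe: cagtgtctgtAcaGgttaTcatCtaatTAA
Cyp3a44 probe: cagtgtctgtGcaAgttaAcatAtaatACG

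The Cyp4a genes, which cover fatty acid hydroxylation, held the most negative log2 fold changes of the members. The tested Cyp4a genes lie in 1 cluster on chromosome 4, from 115299046 to 115622507, in the order Cyp4a12a, Cyp4a12b, Cyp4a14, Cyp4a10, Cyp4a31 and Cyp4a32. Of these 6, 3 were called lower and none higher, and the median log2 fold change was -1.76.

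Cyp4a12a and Cyp4a12b, the male-typed enzymes that make the eicosanoid 20-HETE from arachidonic acid, read lower in every tumor but did not pass the test. Cyp4a12a read 90.7, 81.9 and 67.0 in the normal livers and 0.336, 11.8 and 15.9 in the tumors. Cyp4a12b read 134, 142 and 119 in the normal livers and 0.631, 20.1 and 26.1 in the tumors. Every tumor was far below every normal liver for both genes, and tumor 1 stood far below the other tumors. The log2 fold changes were -4.32 ± 1.41 (adjusted p = 0.0566) for Cyp4a12a and -4.25 ± 1.36 (adjusted p = 0.0538) for Cyp4a12b, just above the threshold. Without tumor 1, both were called lower, at -2.53 (adjusted p = 0.00116) and -2.52 (adjusted p = 7.39e-04). Both were also called lower with normexp background correction, spike-in scaling, the stricter filter and an eBayes trend, and without tumor 3. They stayed uncalled with quantile normalization, no filter on dim probes, the replicate block, the deposited table and the mean of probes (adjusted p from 0.0529 to 0.132). Leaving out any 1 normal liver, or tumor 2, also left both uncalled (adjusted p from 0.0591 to 0.131). The Cyp4a12a probe also lists the accession of Cyp4a12b, and the log2 distance between the probes varied by 0.35 over the arrays while Cyp4a12a varied by 8.08, so the genes were not read independently.

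Cyp4a10, a textbook PPARA target, read 16.9, 29.3 and 27.8 in the normal livers and 4.60, 10.1 and 9.82 in the tumors, for a log2 fold change of -1.64 ± 0.36 (adjusted p = 0.0171). The other tested probes of Cyp4a10 gave -1.16 ± 0.36 and -2.04 ± 0.43, and both were called lower. Cyp4a31 read 15.9, 27.8 and 25.8 in the normal livers and 4.36, 9.097 and 9.22 in the tumors, for a log2 fold change of -1.65 ± 0.36 (adjusted p = 0.0155). Its other probes gave -2.34 ± 0.48, called lower, and -1.09 ± 0.34, not called. Cyp4a10 and Cyp4a31 lost their call without normal liver 2 (adjusted p = 0.0594 and 0.0545) and without normal liver 3 (0.0555 and 0.0510). Cyp4a32 read 7.94, 15.8 and 12.4 in the normal livers and 2.02, 4.11 and 3.83 in the tumors, for a log2 fold change of -1.87 ± 0.35 (adjusted p = 0.0102). In these 3 genes normal liver 1 was the lowest normal liver and tumor 1 the lowest tumor.

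Cyp4a14, which is induced by fasting and by PPARA activators, read 0.190, 0.865 and 0.502 in the normal livers and 0.0689, 0.368 and 0.703 in the tumors. Its groups overlapped, tumor 1 was not well above background, and the log2 fold change was -0.74 ± 0.93 (adjusted p = 0.581).

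Cyp4a10 and Cyp4a31 are near copies, and the log2 distance between the probes whose values are given above varied by 0.08 over the arrays while Cyp4a10 varied by 2.67. These probes overlap on 47 bases and share 44 of them. Another probe of each gene, both called lower, shares 54 of 60 bases with its counterpart, and the log2 distance within that pair varied by 0.81. For each pair the 30-base stretch with the most differing bases is shown, 5′ to 3′, with those bases in capitals (2 in the first pair, 4 in the second), to show how few bases tell the genes apart. The part of shared hybridisation was not tested, and the second Cyp4a10 probe also lists the accession of Cyp4a32.
Cyp4a10 probe, first pair: atcttccctcctttctgcaataaagTtccC
Cyp4a31 probe, first pair: atcttccctcctttctgcaataaagGtccA
Cyp4a10 probe, second pair: gtcaccttCcctgatggaCgCtctttaccC
Cyp4a31 probe, second pair: gtcaccttTcctgatggaTgTtctttaccT

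The Cyp4f genes, which hydroxylate leukotrienes, long-chain fatty acids and vitamins E and K, moved in both directions. Of 6 tested, 4 were called lower and 1 higher. Those on chromosome 17 lie in the order Cyp4f17, Cyp4f16, Cyp4f15, Cyp4f14 and Cyp4f13, from 32506192 to 32947415.

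Cyp4f14 read 116, 134 and 140 in the normal livers and 3.55, 28.8 and 41.9 in the tumors, for a log2 fold change of -2.9975 ± 0.87 (adjusted p = 0.0408). Tumor 1 was again far below the other tumors, and without it the fall was -1.90 (adjusted p = 0.00244), while without any 1 normal liver, or without tumor 2, Cyp4f14 was no longer called (adjusted p from 0.0562 to 0.102). Cyp4f15 read 49.9, 59.0 and 55.2 in the normal livers and 9.15, 14.4 and 20.4 in the tumors, for a log2 fold change of -1.97 ± 0.28 (adjusted p = 0.00435). Cyp4f17 read 5.9996, 6.69 and 6.20 in the normal livers and 2.55, 3.24 and 3.99 in the tumors (-0.97 ± 0.18, adjusted p = 0.00907). Cyp4f13 read 10.9, 10.2 and 11.004 in the normal livers and 5.71, 6.15 and 7.43 in the tumors (-0.74 ± 0.13, adjusted p = 0.00856). For all 4 genes the groups were apart and tumor 3 was the tumor nearest to the normal livers.

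Cyp4f16, which among the tested genes lies between Cyp4f17 and Cyp4f15, rose. It read 0.739, 0.613 and 0.671 in the normal livers and 2.03, 1.76 and 1.99 in the tumors, for a log2 fold change of 1.52 ± 0.12 (adjusted p = 6.36e-04). Its tumors were close to each other, unlike those of Cyp4f17 and Cyp4f15. The upstream 250 bases of Cyp4f16 were 46.3% to 52.6% identical to those of Cyp4f13, Cyp4f14, Cyp4f15 and Cyp4f18, and those 4 were 48.3% to 51.4% identical among themselves.

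Cyp4f18, the leukotriene B4 hydroxylase of mouse neutrophils, lies on chromosome 8 and read 0.631, 0.703 and 0.538 in the normal livers and 0.649, 0.603 and 0.621 in the tumors. The groups overlapped, at 0.01 ± 0.13 (adjusted p = 0.965), and a second probe gave -0.02 ± 0.16. Of 5 neutrophil markers tested (S100a8, S100a9, Ly6g, Camp and Csf3r) none was called, and their median log2 fold change was -0.01. Csf3r gave most of their summed signal, and without it the other 4 summed to 5.88 to 7.93 in the normal livers and 5.53 to 18.1 in the tumors. S100a8 and S100a9 read 3.37 and 12.9 in tumor 1, against at most 1.015 and 4.06 in a normal liver. The other markers did not follow in tumor 1. Ly6g read 1.10 there, its lowest value on any array, against 1.71 to 2.16 in the normal livers. Camp read 0.764 in tumor 1, within its range of 0.702 to 1.13 in the normal livers.

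Cyp4v3, the mouse counterpart of the CYP4V2 fatty acid hydroxylase, also lies on chromosome 8. It read 72.2, 63.5 and 71.3 in the normal livers and 14.2, 21.7 and 35.0 in the tumors, for a log2 fold change of -1.64 ± 0.31 (adjusted p = 0.0104). Cyp4b1, best known from the lung, lies next to the Cyp4a cluster and read 3.58, 4.37 and 4.52 in the normal livers and 4.74, 3.76 and 4.19 in the tumors. Its groups overlapped, at 0.03 ± 0.15 (adjusted p = 0.909).

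**Figure D3:**
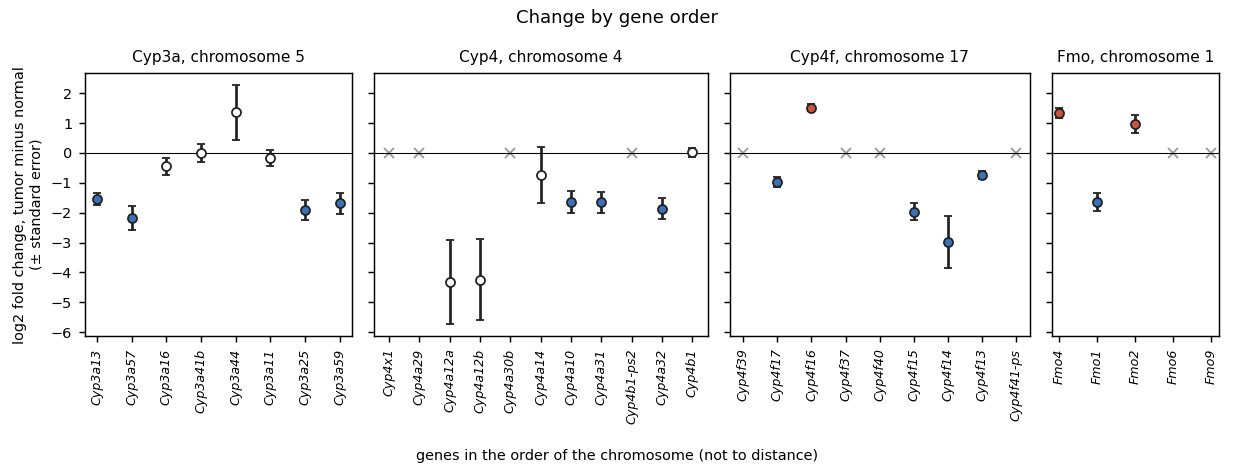
Log2 fold change (tumor minus normal, bars are standard errors, n = 3 and 3) of the genes of 4 clusters in chromosome order, not to distance. Filled points were called lower (blue) or higher (red), open points were not called, and grey crosses at 0 mark genes shown that were too dim to test. In the Cyp3a cluster the outer genes fell, and Cyp4f16 and Fmo4 rose beside Cyp4f17 and Fmo1, which fell.

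All 4 flavin monooxygenases that were tested were called, and they were split. Fmo5, which inserts oxygen next to carbonyl groups rather than at nitrogen or sulfur, lies on chromosome 3 and read 214, 219 and 176 in the normal livers and 72.6, 93.1 and 101 in the tumors. Its log2 fold change was -1.20 ± 0.17 (adjusted p = 0.00392), and its other probes gave -1.25 ± 0.24 and -1.31 ± 0.21. Fmo1, a broad oxidiser of drug amines and sulfides, read 12.1, 18.3 and 14.1 in the normal livers and 2.96, 5.68 and 5.96 in the tumors (-1.66 ± 0.30, adjusted p = 0.00923). A second Fmo1 probe gave -1.61 ± 0.33. Both genes fell in each tumor, with tumor 1 the lowest.

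Fmo4 and Fmo2 rose from low levels, and with Fmo1 lie in the order Fmo4, Fmo1 and Fmo2 on chromosome 1, from 162793188 to 162898758. Fmo4 read 0.368, 0.343 and 0.253 in the normal livers and 0.742, 0.853 and 0.832 in the tumors, for a log2 fold change of 1.35 ± 0.17 (adjusted p = 0.00276). Fmo2, the main form of the lung, read 0.441, 0.552 and 0.841 in the normal livers and 0.958, 0.985 and 1.57 in the tumors, with groups just apart, a log2 fold change of 0.95 ± 0.30 and an adjusted p of 0.0491. Fmo2 was no longer called when any 1 array but normal liver 3 was left out (adjusted p from 0.0625 to 0.128). The 3 genes that rose were dim, and local background had array medians of 42 to 45 in normal liver but 22 to 23 in tumor, so their values are given with another background correction as well. The normexp correction was run with an offset of 50, which by itself shrinks the fold changes of dim probes. With normexp correction, Fmo4 was at 0.74 (adjusted p = 0.00177), Fmo2 at 0.65 (adjusted p = 0.0344) and Cyp4f16 at 1.11 (adjusted p = 1.78e-04), smaller but still called higher.

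**Figure D4:**
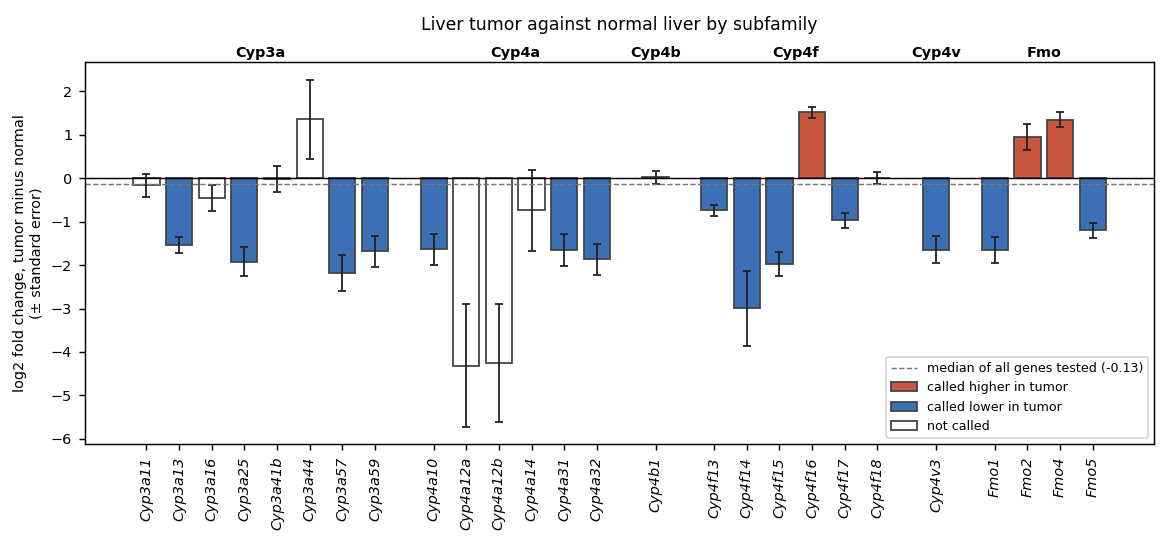
Log2 fold change (tumor minus normal) with standard error for the 26 tested genes by subfamily, blue where called lower, red where called higher and open where not called. The dashed line is the median of all genes tested, -0.13, and the members have a median of -1.37, with Cyp4a12a and Cyp4a12b the lowest values and also wide error bars.

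The 11 genes that were not tested included Cyp4a29, Cyp4a30b, Cyp4b1-ps2, Cyp4f37, Cyp4f39, Cyp4f40, Cyp4f41-ps, Cyp4x1, Fmo6 and Fmo9. A gene was tested where a probe stood well above background in every normal liver or in every tumor, and these 11 had signals from 0.0210 to 0.155. Cyp4f39, a skin fatty acid hydroxylase, was well above background in 2 of the 3 tumors (0.150 and 0.139) and in no normal liver.

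The log2 signal varied more among the tumors than among the normal livers in 20 of the 26 members (76.9%), against 54.5% of all genes tested. The median SD of the log2 signal over the members was 0.18 in the normal livers and 0.58 in the tumors, against 0.16 and 0.18 over all genes tested. Tumor 1 was the lowest tumor in 19 of the 26 members (73.1%), against 35.7% of all genes tested. It was the lowest tumor in each of the 14 members called lower, and in 66.7% of all genes called lower. The genes called higher did not share the wide spread in Cyp4f16 and Fmo4, where the tumors lay within 1.76 to 2.03 and 0.742 to 0.853.

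**Figure D5:**
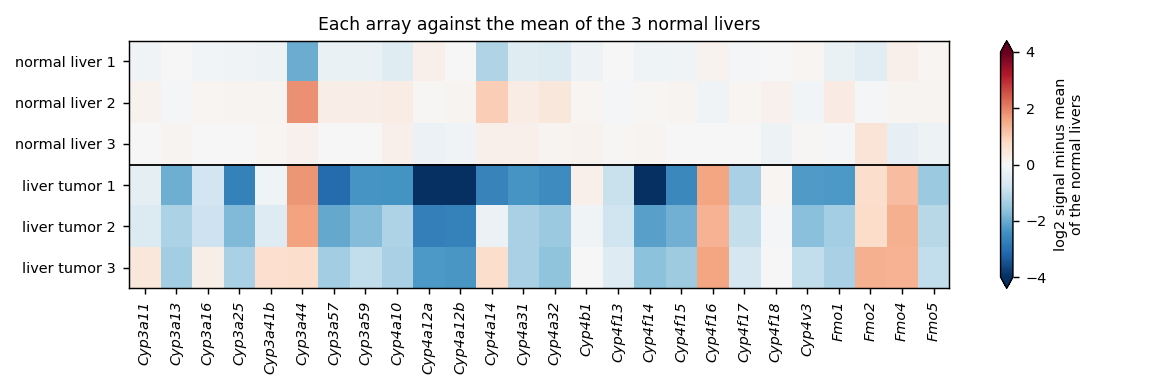
Log2 signal of each array minus the mean of the 3 normal livers, for the 26 tested genes (colour scale clipped at 4 in each direction). Tumor 1 is the darkest blue for Cyp4a12a, Cyp4a12b and Cyp4f14, tumor 3 is nearest to the normal livers for most genes called lower, and the 3 tumors are alike for Cyp4f16 and Fmo4.

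Of 12 regulators of these genes, 3 were called lower and none higher, with a median log2 fold change of -0.38. Over all genes tested, 21.0% were called lower and 13.1% higher, so the count of regulators called lower was near the background. Nr1i3 (CAR) had means of 26.6 in the normal livers and 5.42 in the tumors, for a log2 fold change of -2.35 ± 0.23 (adjusted p = 0.00132). Nr1h4, the bile acid receptor FXR, was at -1.22 ± 0.23 (adjusted p = 0.0101), and Rxra, the partner of CAR and FXR, at -0.81 ± 0.10 (adjusted p = 0.00244). The regulators not called included Nr1i2 (PXR) at -0.43, Ppara at -0.38, Nr3c1 at -0.22, Cebpa at -0.40, Foxa2 at -0.32, Ncoa1 at -0.26, Hnf4a at 0.16 and Nr0b2 at 0.04.

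Of 9 genes for electron transfer to P450 and for haem synthesis, 3 were called lower and none higher, with a median of -0.60. The shares over all genes tested were 21.0% lower and 13.1% higher. The genes called lower were Cyb5a (cytochrome b5, -1.11 ± 0.16, adjusted p = 0.00463), Pgrmc1 (a haem-binding P450 partner, -0.95 ± 0.15, adjusted p = 0.00534) and Alad (the haem pathway enzyme that makes porphobilinogen, -0.86 ± 0.17, adjusted p = 0.0130). Por, the oxidoreductase that feeds electrons to the P450s, was at -0.52 ± 0.19 (adjusted p = 0.0777). Cyb5b at -0.60, Alas1 at -0.80, Fech at -0.14, Cyb5r3 at 0.05 and H6pd at 0.26 were not called either.

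For the target lists, the shares over all genes tested were again 21.0% called lower and 13.1% called higher. Of 11 tested targets of PXR and CAR outside the families, 5 were called lower and 2 higher, with a median of -1.21. The lower ones included Cyp2c29 (-2.95 ± 0.59), Cyp2c55 (-2.95 ± 0.70) and the carboxylesterase Ces2a (-2.20 ± 0.20). The higher ones were the drug exporter Abcb1a (2.86 ± 0.20) and Cyp2b10 (1.37 ± 0.41), the gene by which CAR activity is usually read. Of 19 tested PPARA targets, 12 were called lower and 3 higher, with a median of -0.66. The lower ones included Acot1 (-2.48 ± 0.70) and Angptl4 (-1.83 ± 0.43). The higher ones were Vnn1 (4.21 ± 0.55), the lipid droplet coat gene Plin2 (1.44 ± 0.20) and Cpt1a (0.80 ± 0.23).

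Markers of cell types gave these values beside the members, where 21.0% of all genes tested were called lower and 13.1% higher. The summed level of the 8 hepatocyte markers was 8494 to 9522 in the normal livers and 8404 to 8737 in the tumors. Most of this sum came from Alb, Apoa2, Ahsg, Fgb and Ttr, which were not called. Apoa1, called higher, added 442 to 509 in the normal livers and 770 to 1021 in the tumors. Tat and Cps1, called lower, read at most 113 and 76.5 on any array and weigh little in it. Of 6 Kupffer cell markers, 4 were called lower, with a sum of 64.3 to 126 in the normal livers and 29.8 to 55.5 in the tumors. Of 6 endothelial markers, 2 were called lower, with sums of 104 to 117 and 80.0 to 88.7, and of 4 cholangiocyte markers tested none was called, with sums of 2.01 to 2.57 in the normal livers and 1.65 to 1.93 in the tumors. Of 6 stellate cell and fibroblast markers, 3 were called lower and 2 higher, with sums of 4.90 to 7.73 in the normal livers and 7.72 to 10.5 in the tumors. Most of this sum came from Col1a2, at 2.78 to 4.89 in the normal livers and 4.79 to 6.91 in the tumors. Col1a2 was not called. Of 2 lymphocyte markers tested none was called, with sums of 6.16 to 8.05 and 6.21 to 8.13, and Cd8a stood well above background on no array. Cd3e gave most of the lymphocyte sum. The part of cell composition in the changes of the members was not tested.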

How the data were processed

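RNA of 3 normal livers and 3 liver tumors was measured on 6 single-colour Agilent arrays (62976 spots, 3671 of them controls). The authors deposited Feature Extraction scanner files, whose processed intensity is background-corrected, and a table of deposited ratios, which are the intensity over the 75th percentile of the array. The version of Feature Extraction is 10.7.3.1 per the file headers and 12.0.3.1 per the submitters' processing notes. The deposited ratio differed from the ratio recomputed here by at most 0.369. Arrays hold no counts, so precision is limited by the number of arrays.

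Here log2 of the processed intensity minus the 75th percentile over all spots of the array was used. Outlier spots were left out and spots of 1 probe averaged. Of 55681 probes, 27235 were named through their accession, 3581 by symbol and 565 by synonym in the RefSeq table (GRCm38.p6), and 24300 kept the name of the array design. The 24902 probes that stood well above background in every normal liver or in every tumor were fitted with limma 3.58.1 (R 4.3.3; lmFit, eBayes, 2-sided), with Benjamini-Hochberg adjustment over all of them and a threshold of 0.05. A gene was counted once, by its probe with the highest mean signal. By rule, each Cyp3a, Cyp4 and Fmo gene is named, each regulator and electron transfer gene, and of the target lists up to 3 called genes in each direction; a few of these are counted but not reported here by name. The fit was tested on simulated data. Members and lists were chosen with earlier results of these data known. Nothing given here says that the samples came from separate animals, so p-values measure the spread between these samples. Upstream sequences were matched by symbol for 26 of the member genes, taking the first listed start of a gene, and Cyp3a pairs were aligned over 250 bases (Biopython 1.88). The alternatives were normexp background correction, quantile normalization, spike-in scaling, the deposited table, other filters, averaging the probes of a gene, an eBayes trend, a replicate block, leaving out each array, and the methods' t-test.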

Additional observations from a re-analysis of the deposited data

How the results depend on the processing

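No member called higher or lower changed direction under any alternative run. The count called lower was 12 to 16 and the count called higher 2 or 3 across the alternative fits of all arrays, and leaving out 1 array gave 11 to 17 lower and 2 or 3 higher, with a median of -1.53 to -1.16. Without a filter on dim probes, all 37 genes entered and their median was -0.74, since the added genes are near background, and Cyp4a10 (adjusted p = 0.0533), Cyp4f14 (0.103) and Fmo2 (0.127) were no longer called. The methods' t-test (ratio of 2 or more either way, mean above 1) called 1 gene higher and 14 lower of 23 that entered, both unpaired and paired, without Cyp4f13, Cyp4f17, Fmo2 and Fmo4 and with Cyp4a12a and Cyp4a12b. After Benjamini-Hochberg adjustment 1 higher and 11 lower remained unpaired, and none paired. Spike-in scaling moved the median of all genes from -0.13 to 0.07 and the share of higher among all calls from 38.5% to 63.7%, and the members stood at 3 higher and 15 lower, with Cyp4f13 lost (adjusted p = 0.0937). Quantile normalization lost Cyp4f14 and Fmo2. With the replicate block, 3 were called higher and 14 lower (median -1.37). Deviations of same-numbered samples correlated at 0.068, 0.131 and 0.05, and those of differently numbered samples at -0.138 to 0.055. With 3 arrays in each group these values cannot decide pairing. The main fit did not use the numbers as pairs.

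Signs turned for genes that were not called. Cyp3a41b was at 0.05 with normexp, 0.07 with quantile normalization, 0.19 with spike-in scaling, and -0.35 to 0.25 when 1 array was left out. Cyp3a11 was at 0.05 with quantile normalization and 0.03 with spike-in scaling, and -0.47 to 0.03 when 1 array was left out. On leaving out 1 array, Cyp4b1 ranged from -0.08 to 0.11, Cyp4f18 from -0.09 to 0.10, and Cyp4a14 from -1.45 to 0.22, and Cyp4f18 was at -0.00 with the mean of its probes. The causes were not tested.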
